A study of Rattus norvegicus with 43 samples.

Results

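The cytochrome P450 family 1 enzymes Cyp1a1, Cyp1a2 and Cyp1b1, the aryl hydrocarbon receptor (Ahr) and its partner Arnt were followed from rat liver into cultured rat primary hepatocytes (RPH). Members were the probe sets with 1 of these 5 names as their single listed gene, 6 of 31099 probe sets on the array (Ahr has 2), and where a gene has several, the one brightest on average (log2) was used. All 5 genes passed the filter on low signal, among 10650 genes tested of 14218 with a probe set of their own. The study asked how far hepatocytes in culture resemble the liver. Each of 3 male Sprague Dawley rats gave a sample to every group. The liver group is a lobe closed off before the perfusion, RPH 0 h is the pellet of isolated cells, and RPH 4 h, RPH 24 h and RPH 48 h are cells kept on collagen-coated plates. The William's E medium of all plated groups held glutamate, gentamicin, insulin, transferrin and dexamethasone, with serum for the first 4 hours and none after. All RPH are labelled untreated. RNA of each rat and group went to 3 technical arrays (43 in all, 1 at 4 hours and 1 at 48 hours having been excluded by the authors), and the values below are MAS5 signals, geometric means over these arrays for a rat and over n = 3 rats for a group.

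The Ah receptor is a ligand-activated transcription factor of the bHLH-PAS family. It waits in the cytoplasm with Hsp90 and co-chaperones, moves to the nucleus when a planar aromatic ligand binds, pairs with Arnt and binds the xenobiotic response element, whose core is GCGTG. Cyp1a1, Cyp1a2 and Cyp1b1 are its classical target genes: Cyp1a2 is a constitutive enzyme of the hepatocyte, Cyp1a1 is low in liver without an inducer, and Cyp1b1 is mainly an enzyme of cells other than hepatocytes. Arnt is also the partner of the hypoxia-inducible factors, whose core site is ACGTG.

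Sequences around the start site (250 bases before it to 50 after it, from RefSeq, build GRCr8) were held for 4 of the 5 genes, all but Cyp1a1, which lies beside Cyp1a2 on chromosome 8 with 0 listed genes between them. The 3 windows that hold a searched motif are printed because they show how the family differs at its promoters, with every GCGTG or its reverse complement CACGC, and every TATAAA or TTTATA, in capitals. They are Cyp1a2 at chr8:66978100-66978399 (minus strand), Cyp1b1 at chr6:21094315-21094614 (plus strand) and Arnt at chr2:185686453-185686752 (plus strand).
Cyp1a2: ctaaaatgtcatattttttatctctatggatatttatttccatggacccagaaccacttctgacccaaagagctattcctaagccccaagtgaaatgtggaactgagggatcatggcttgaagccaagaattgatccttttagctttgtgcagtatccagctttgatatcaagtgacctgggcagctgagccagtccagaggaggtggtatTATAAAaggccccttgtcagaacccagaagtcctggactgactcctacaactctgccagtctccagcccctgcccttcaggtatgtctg
Cyp1b1: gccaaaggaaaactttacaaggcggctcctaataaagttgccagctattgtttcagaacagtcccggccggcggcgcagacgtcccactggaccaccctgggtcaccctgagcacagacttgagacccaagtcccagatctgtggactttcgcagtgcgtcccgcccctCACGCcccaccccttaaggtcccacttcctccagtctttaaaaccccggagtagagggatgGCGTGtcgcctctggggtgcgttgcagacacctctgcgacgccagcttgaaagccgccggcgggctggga
Arnt: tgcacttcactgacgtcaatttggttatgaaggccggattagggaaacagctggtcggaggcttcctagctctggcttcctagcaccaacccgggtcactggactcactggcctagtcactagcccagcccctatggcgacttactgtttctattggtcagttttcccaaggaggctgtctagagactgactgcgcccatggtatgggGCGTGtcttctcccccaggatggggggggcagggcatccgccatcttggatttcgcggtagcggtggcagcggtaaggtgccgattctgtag
The Cyp1a2 window has a TATAAA whose first base is at -39 from the start site and no GCGTG on either strand. The Cyp1b1 window has 2 copies of the GCGTG core, at -81 (as CACGC) and -20, and no TATAAA. Arnt has 1 GCGTG at -42, and Ahr has none of the motifs. ACGTG, searched on both strands and not overlapping the other motifs here, was in none of the 4 windows. Of 33469 windows of 300 bases in the table, 29.7% hold GCGTG, 19.3% ACGTG and 14.2% TATAAA on either strand, so a match to these short words describes the letters only. Elements further from the start site lie outside these windows.

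The median signal of an array was 108 to 145 in liver and 79.4 to 116 in RPH, and the 3' to 5' ratio of the beta-actin probe sets fell along the series, from 3.21 to 6.96 in the livers to 1.95 to 2.46 at 48 hours. Where a fit with this ratio as a covariate ended a call on a member or a pathway gene named below, this is said beside it. Deviations from the group means of RPH samples correlated within a rat. The livers of rats 1 and 2, however, had mean correlations of 0.03 and -0.06 with the RPH of their own rat and of 0.19 and 0.08 with those of the other. It is thus also said where a call against liver on a named member or pathway gene ended without these livers. Single marker genes of cell types were not followed under either setting. Centring each array on its median moved the median log2 change of all genes against liver at 4 hours (-0.25 as deposited, 0.21 centred), 24 hours (0.00 and 0.42) and 48 hours (0.04 and 0.43). The share of called genes that were higher moved likewise, with 35.4% as deposited and 68.1% centred at 4 hours, 49.8% and 74.4% at 24 hours, and 52.9% and 74.9% at 48 hours.

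**Figure D1:**
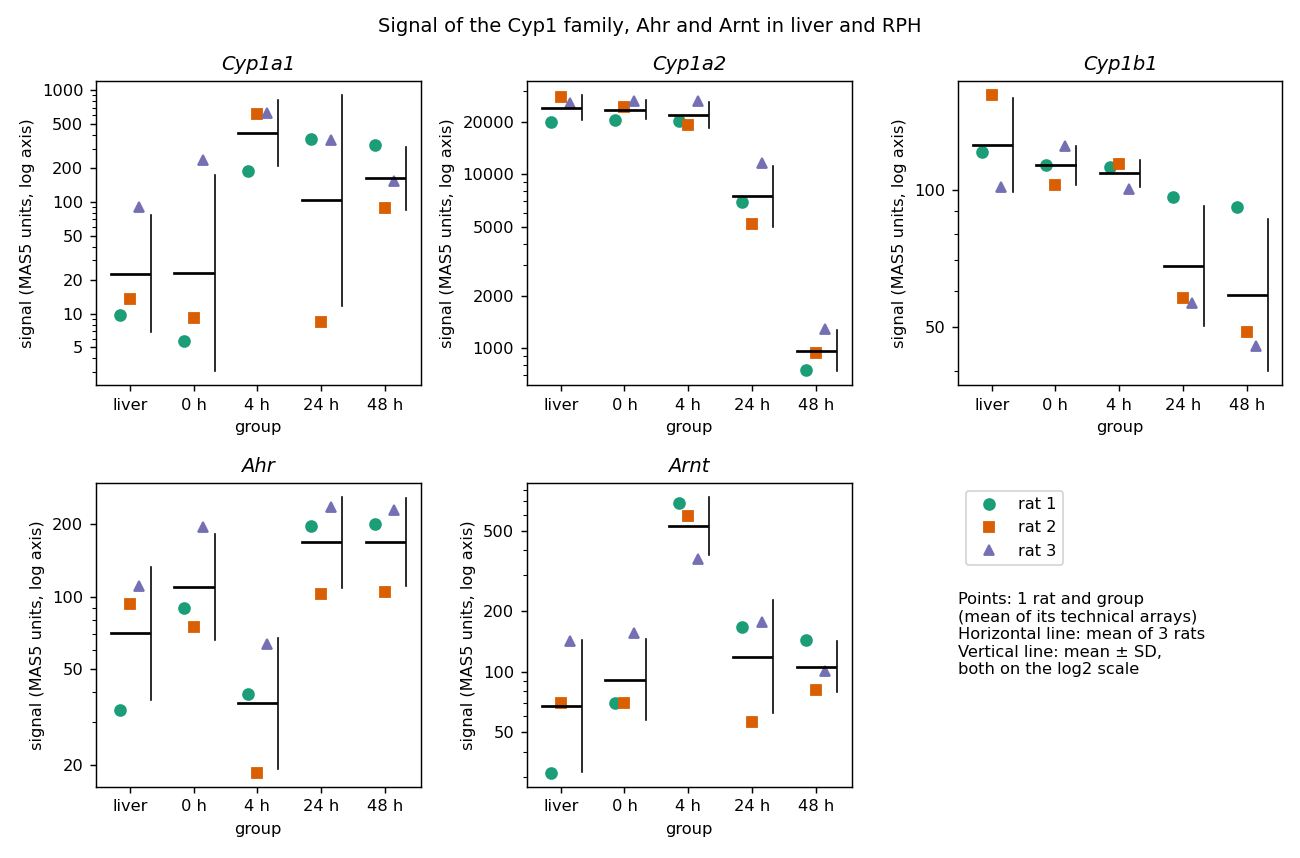
Signal of each gene (MAS5 units, log axis) by group. Symbols are single rats, horizontal lines the mean of 3 rats and vertical lines the mean ± SD on the log2 scale. Cyp1a2 falls from a mean of 24202 in liver to 970 at 48 hours in all rats, Arnt stands at 363 to 689 at 4 hours in all rats, and Cyp1a1 at 24 hours lies at 8.42 in rat 2 against 363 and 364 in the others.

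The 5 genes moved in different ways. Cyp1a2 was not told apart from liver at 0 and 4 hours and then fell about 25-fold, and Cyp1b1 fell about 2.13-fold. Arnt rose 7.81-fold at 4 hours and came back, and Cyp1a1 rose at 4 hours from a low and uneven base. Ahr had its lowest mean at 4 hours, a level not told apart from liver. With limma, 0 of 5 genes were called at 0 hours against liver (adjusted p under 0.05, background 0.573% of all genes tested), and 0 of 5 had an unadjusted p under 0.05. Against liver 2 of 5 were called at 4 hours (Cyp1a1 and Arnt, background 46.2%), 2 of 5 at 24 hours (Cyp1a2 and Cyp1b1, 47.6%) and 2 of 5 at 48 hours (Cyp1a2 and Cyp1b1, 47.9%). Against 0 hours 3 of 5 were called at 4 hours (Cyp1a1, Ahr and Arnt, background 38.9%), 2 of 5 at 24 hours (Cyp1a2 and Cyp1b1, 41.5%) and 2 of 5 at 48 hours (Cyp1a2 and Cyp1b1, 44.1%). From 4 to 24 hours 3 of 5 were called (Cyp1a2, Ahr and Arnt, background 39.8%), and from 24 to 48 hours 1 of 5 (Cyp1a2, 4.28%). The comparisons with liver share the liver samples and those with 0 hours share the 0 hour samples.

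Cyp1a2, which metabolises caffeine and activates aromatic amines, had signals of 20033, 27677 and 25568 in the livers of rats 1, 2 and 3. At 0 hours they were 20612, 24253 and 26244, and at 4 hours 20304, 19326 and 26531. These 9 samples overlapped, and limma gave a log2 fold change of -0.04 (95% interval -0.63 to 0.56) at 0 hours and -0.15 (-0.74 to 0.45) at 4 hours against liver. At 24 hours the signals were 6954, 5190 and 11610, and at 48 hours 753, 937 and 1291. Every rat was below its own 4 hour sample at 24 hours and lower again at 48 hours, and neither group overlapped with an earlier one. The log2 fold change against liver was -1.69 (SE 0.28, limma adjusted p = 0.000259) at 24 hours and -4.64 (SE 0.28, limma adjusted p = 4.74e-08) at 48 hours, a level 25.0-fold lower than in liver. The step from 24 to 48 hours, -2.95 (limma adjusted p = 7.93e-05), was larger than that from 4 to 24 hours, -1.55 (limma adjusted p = 0.000684), though the difference between the steps was not tested. Among all 10650 genes tested, this fall from 24 to 48 hours had rank 7 among the falls. The order of the levels was liver, 0 hours, 4 hours, 24 hours and 48 hours, with the first 3 not told apart. Each of these calls was kept in all 23 alternatives against liver and all 22 among RPH.

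The markers of the hepatocyte fell less than Cyp1a2. Among all genes tested, 47.9% were called against liver at 48 hours. The summed signal of 9 hepatocyte markers (Alb, Apob, Hnf4a and others) was 286058 to 312780 in the livers, 203756 to 251648 in the 24 hour samples and 166629 to 187843 in those of 48 hours, and 7 of the 9 were lower at 48 hours with a median log2 fold change of -0.85, against 0.04 for all genes. With arrays centred on their median 3 of the 9 were lower (median -0.46), with quantile normalization 4 (-0.31) and with the actin ratio as a covariate 4 (-0.61). In these bulk samples, fewer cells of a type and less RNA per cell cannot be told apart. The change of Cyp1a2, -4.64 on the log2 scale, was larger in size than that of each of the 9 markers, the closest being fibrinogen beta (Fgb) with -2.25 (limma adjusted p = 8.28e-07).

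Cyp1a1, the most inducible enzyme of the family, was read with much less certainty. In liver its signal was 9.81, 13.5 and 90.3 in rats 1, 2 and 3, and at 0 hours 5.72, 9.21 and 236. Rat 3 was the high one in both groups, while rats 1 and 2 were dim in both. At 4 hours the signals were 190, 618 and 622. All rats rose over their own 0 hour sample, by 5.06, 6.07 and 1.40 on the log2 scale, and all 4 hour samples were above all livers, though the 0 hour sample of rat 3 was above the 4 hour sample of rat 1. At 24 hours they were 364, 8.42 and 363, and at 48 hours 323, 87.6 and 153. Rats 1 and 3 thus stayed high at 24 hours, whereas rat 2 returned to the level of its liver and was higher again at 48 hours.

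The technical arrays show how the rats differ. In rat 2 at 24 hours the 3 arrays of the same RNA read 5.04 to 11.8, against 214 to 482 in rat 1 and 309 to 398 in rat 3, so the arrays of rat 2 did not overlap with those of the others. On the 0 hour RNA of rat 3 the arrays read 223 to 249, against 3.94 to 8.10 in rat 1 and 5.73 to 16.6 in rat 2. The 24 hour sample of rat 2 was also the lowest of its group for Cyp1a2 (5190), Arnt (56.4) and Ahr (103). The same held for Hmox1 (1282, 433 and 1402 in rats 1, 2 and 3) and Egln3 (1403, 340 and 914). Rat 2 was, however, also the lowest for Ahr at 0, 4 and 48 hours (74.6, 18.5 and 105) and for Arnt at 48 hours (81.4). For Cyp1b1 (96.2, 58.0 and 56.4) and Por (8772, 8936 and 11018) its 24 hour sample lay between the others. What set this sample apart was not tested.

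**Figure D2:**
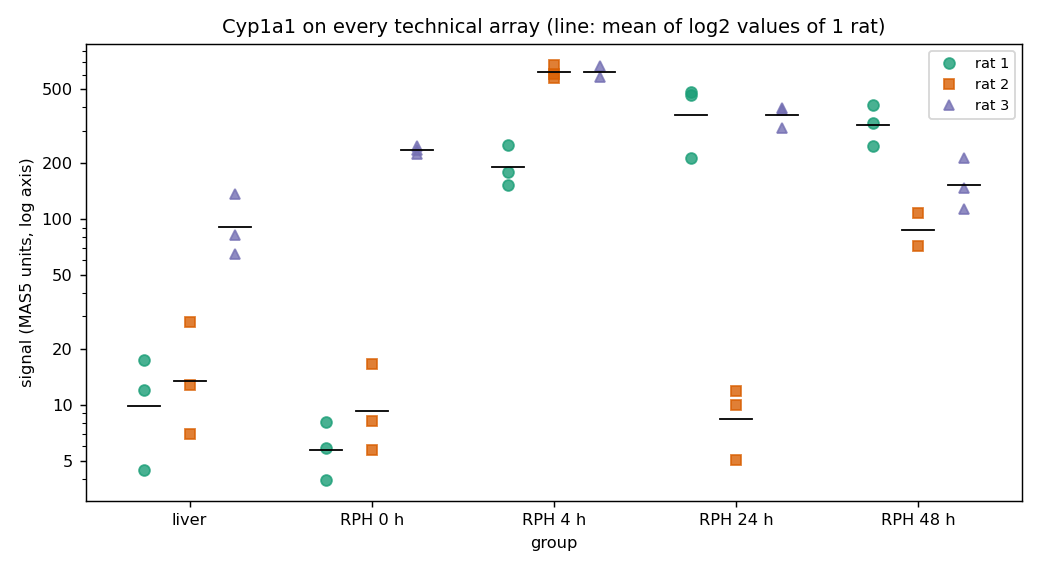
Cyp1a1 signal (MAS5 units, log axis) on each of the 43 arrays by group and rat, with the mean of each rat as a line. The arrays of rat 2 lie at 574 to 678 at 4 hours and at 5.04 to 11.8 at 24 hours, and those of rat 3 are the highest at 0 hours (223 to 249).

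Against liver the rise of Cyp1a1 at 4 hours was 4.19 on the log2 scale (SE 1.53, 95% interval 0.89 to 7.49, limma adjusted p = 0.0380), and against 0 hours it was 4.17 (SE 1.53, limma adjusted p = 0.0448). With 32 added to each signal, which damps low values, these changes were 2.86 and 2.60. The liver comparison lost its call without the liver of rat 1 (3.58, adjusted p = 0.117) or rat 2 (3.81, 0.108), without both (2.21, 0.485), without the 4 hour sample of rat 2 (3.91, 0.0979) or rat 3 (3.91, 0.0946), without rat 1 (4.15, 0.122) or rat 2 (3.53, 0.137) altogether, with the actin ratio as a covariate (2.61, 0.259) and without a filter on low signal (4.19, 0.0547). The comparison with 0 hours lost it in 7 of the 9 fits without 1 sample or rat, with a lowest value of 3.17 without the 0 hour sample of rat 1 (adjusted p = 0.161) and an adjusted p of 0.187 without rat 2. It was also lost with the actin ratio as a covariate (3.07, 0.162), without a filter on low signal (0.0686), with only the groups compared in the fit (0.0550) and with a trended and robust prior (0.0531). The log2 fold changes of 2.18 at 24 hours (95% interval -1.12 to 5.48) and 2.83 at 48 hours (-0.47 to 6.13) were not called by limma (adjusted p = 0.255 and 0.142). Without the 24 hour sample of rat 2, that at 24 hours was 3.99 (limma adjusted p = 0.0334). That at 48 hours was called with only the groups compared in the fit (2.83, limma adjusted p = 0.0237). It was also called with all arrays and the sample as a random block (2.86, 0.0188). No pair of neighbours in the order of the levels (4 hours, 48 hours, 24 hours, 0 hours, liver) differed beyond its spread.

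Cyp1b1, which hydroxylates estradiol and polycyclic hydrocarbons, was at 121, 161 and 101 in the livers, 113, 103 and 125 at 0 hours and 112, 114 and 100 at 4 hours. These 9 values overlapped. At 24 hours it was 96.2, 58.0 and 56.4, and at 48 hours 91.5, 48.8 and 45.5. All later samples were below all earlier ones, with rat 1 only just so. Its log2 fold change against liver was -0.88 (SE 0.27, limma adjusted p = 0.0176) at 24 hours and -1.09 (SE 0.27, limma adjusted p = 0.00527) at 48 hours, and against 0 hours it was -0.74 (0.0456) and -0.95 (0.0130). Between 4 and 24 hours the fall of 0.67 had a limma adjusted p of 0.0659, and of 0.0396 with the rat as a block. The 24 hour call against liver ended when arrays were centred on their median (-0.47, adjusted p = 0.113) or quantile normalized (-0.45, 0.104), with the actin ratio as a covariate (-1.07, 0.0744), with all arrays and the sample as a random block (0.0649), and without the liver of rat 2 (-0.70, 0.0811), the livers of rats 1 and 2 (-0.57, 0.304), the 24 hour sample of rat 2 (-0.77, 0.0667) or rat 3 (-0.75, 0.0698), all samples of rat 2 (-0.58, 0.249) or all of rat 3 (-0.90, 0.0774). The 48 hour call against liver ended without rat 2 (-0.78, 0.136) and without the livers of rats 1 and 2 (-0.78, 0.162). Against 0 hours, the call at 24 hours ended without any 1 sample of the pair of groups other than the 24 hour sample of rat 1, and without rat 2 or rat 3 (-0.81 to -0.53). It ended too with the actin ratio as a covariate (-0.89, 0.1003), the random block (0.138), a trended and robust prior (0.0774), no filter on low signal (0.0683) and only the groups compared in the fit (0.0513). That at 48 hours ended without the 48 hour sample of rat 2 (-0.81, 0.0553) or rat 3 (-0.76, 0.0610), without rat 2 (-0.88, 0.101) or rat 3 (-0.69, 0.163), with the actin ratio as a covariate (-1.11, 0.0572) and with the random block (-0.94, 0.0542). The probe set was above the array median on 16 of 43 arrays, at 24 and 48 hours on none.

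Markers of the cells that share the liver with hepatocytes did not all move with Cyp1b1. The share of all genes called against liver at 48 hours was 47.9%. The summed signal of 10 Kupffer cell markers was 21412 to 27459 in the livers, 6463 to 9193 in the 4 hour samples and 1741 to 2382 in those of 48 hours, and 10 of 10 were lower at 48 hours (median log2 fold change -2.78, led by Cd5l). That of 12 sinusoidal endothelial markers was 14315 to 18256, 3730 to 5683 and 644 to 1280 in the same groups, and 12 of 12 were lower (median -4.27, led by Kdr). That of 16 stellate and fibroblast markers was 13291 to 24682, 2126 to 4812 and 15070 to 18498. At 48 hours 9 of these were lower, such as Pdgfra, and 3 higher, such as Tagln. Their median log2 fold change was -1.99, with 13 of 16 below 0, so the sum does not stand for most of them. At 4 hours, when all 3 sums were below all livers, the log2 fold change of Cyp1b1 was -0.21 (95% interval -0.80 to 0.38). Of 4 red cell markers 4 were lower at 48 hours (summed signal 7722 to 58679 in liver, 193 to 304 at 48 hours). Of 3 bile duct markers Epcam was higher (1.61) and Krt19 lower (-2.51), and their sum was 994 to 1032 in liver and 2204 to 3133 at 48 hours. No marker was at 0, the lowest being Tagln with 3.48, 5.56 and 4.52 at 4 hours. The part of other cells in the change of Cyp1b1 was not tested.

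Ahr, the receptor, had signals of 33.9, 93.0 and 110 in the livers and 89.9, 74.6 and 195 at 0 hours. At 4 hours it was 39.4, 18.5 and 63.7, at 24 hours 196, 103 and 236, and at 48 hours 200, 105 and 229. Every rat was lower at 4 hours than at 0 hours, and the 4 hour samples lay below all those of 0, 24 and 48 hours. The fall from 0 to 4 hours was -1.61 on the log2 scale (SE 0.56, limma adjusted p = 0.0351), and the rise from 4 to 24 hours was 2.23 (SE 0.56, limma adjusted p = 0.00610). The levels at 24 and 48 hours differed by 0.00 (95% interval -1.19 to 1.20). Against liver, 24 and 48 hours stood at 1.26 each (SE 0.56, limma adjusted p = 0.0774 and 0.0763), and both passed with the rat as a block (0.0180 and 0.0176) and with arrays centred on their median (1.67 and 1.65, adjusted p = 0.0113 and 0.0120).

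The low point at 4 hours rests on dim and uneven arrays. The technical arrays of 1 RNA ranged from 7.49 to 99.9 in rat 1 and from 4.73 to 52.9 in rat 2, and from 61.0 to 66.5 in rat 3, whereas at 24 hours they ranged over 154 to 255, 97.9 to 109 and 201 to 268. With the median in place of the mean of the technical arrays the change from 0 to 4 hours was -1.12 (limma adjusted p = 0.103). The call also ended without the 0 hour sample of rat 1 (-1.75, adjusted p = 0.0521) or rat 3 (-1.19, 0.140), without the 4 hour sample of rat 1 (-1.67, 0.0619) or rat 2 (-1.13, 0.148), and without rat 1, 2 or 3 altogether (-1.81, -1.40 and -1.60, adjusted p 0.0974, 0.105 and 0.0824). With all arrays and the sample as a random block its adjusted p was 0.181, without a filter on low signal 0.0551 and with only the groups compared in the fit 0.0579. The rise from 4 to 24 hours lost its call without rat 1 (2.18, 0.0518) and with the random block (2.25, 0.0579). The other Ahr probe set, which did not pass the filter and was above the array median on 0 of 43 arrays, had mean signals of 56.5 in liver and 19.8, 24.8, 33.4 and 39.2 at 0, 4, 24 and 48 hours, and put the change from 0 to 4 hours at 0.32 (adjusted p = 0.768) and that from 4 to 24 hours at 0.43 (0.689). The probe sets thus disagree on the direction of the first step. They also disagree on that of the changes from liver at 0, 24 and 48 hours. The other set put these at -1.51, -0.76 and -0.53, none of them called. Their positions in the transcript were not analysed here.

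Arnt, the shared partner, had signals of 31.4, 70.0 and 141 in the livers and 69.6, 69.6 and 155 at 0 hours. At 4 hours they were 689, 592 and 363, at 24 hours 167, 56.4 and 177, and at 48 hours 144, 81.4 and 101. All 4 hour samples were above all others, and in each rat 4 hours was the highest time. Over its own liver, each rat rose by 4.46, 3.08 and 1.36 on the log2 scale. The liver arrays were dim and uneven, at 10.8 to 56.4, 25.7 to 136 and 97.7 to 203 in rats 1, 2 and 3. The log2 fold change at 4 hours was 2.97 against liver (SE 0.55, limma adjusted p = 0.000748) and 2.54 against 0 hours (SE 0.55, limma adjusted p = 0.00271). From 4 to 24 hours it was -2.16 (SE 0.55, limma adjusted p = 0.00692). With 32 added to each signal, the changes at 4 hours were 2.37 against liver and 2.17 against 0 hours. The 24 and 48 hour levels, 0.81 and 0.65 above liver on the log2 scale, were not called (95% intervals -0.38 to 1.99 and -0.54 to 1.83), though centring arrays on their median put 24 hours at 1.22 (limma adjusted p = 0.0490). The rise over 0 hours was called in all 22 alternatives (1.91 to 3.20), that over liver in 22 of 23, with 1.90 (limma adjusted p = 0.0554) without the livers of rats 1 and 2, and the fall after 4 hours in 21 of 22, with -1.54 (limma adjusted p = 0.130) without rat 2.

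**Figure D3:**
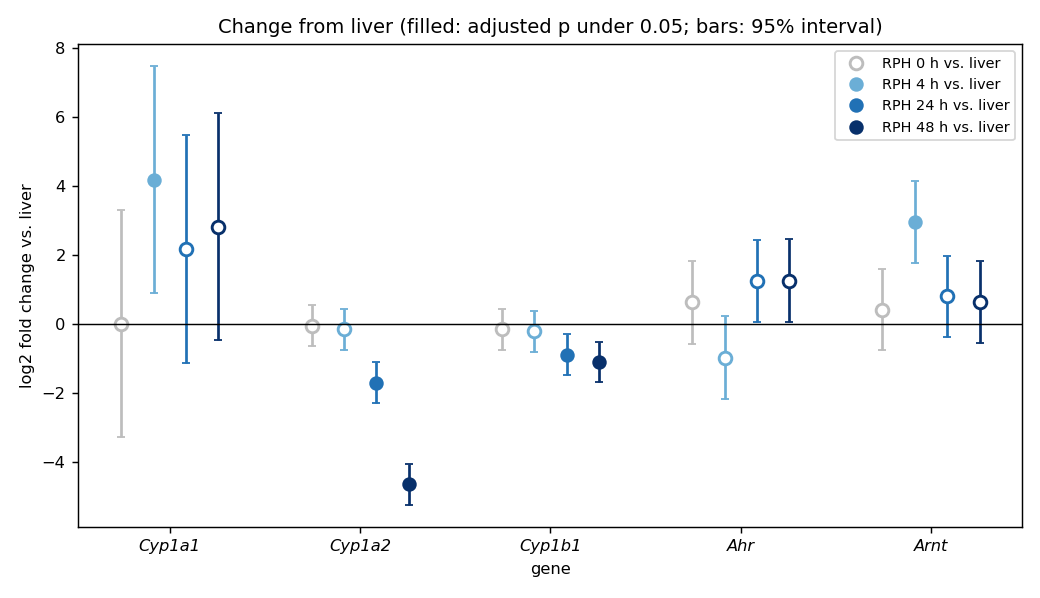
Log2 fold change against liver for each gene at 0, 4, 24 and 48 hours, with 95% intervals. Filled points passed an adjusted p under 0.05. Cyp1a2 at 48 hours (-4.64) and Arnt at 4 hours (2.97) have intervals far from 0, while those of Cyp1a1 span several log2 units.

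Genes with time courses most like each member were named by Pearson's r over the 15 log2 values of rats and groups, which share the rats and the arrays. For Cyp1a2 they were Pon1 (r = 0.992), Serpina6, Afm, Cyp2c23 and Apcs (0.989), among them the plasma carriers Serpina6 and Afm and the liver enzyme paraoxonase 1. Serpina6, corticosteroid-binding globulin, had mean signals of 16687 (liver), 14339 (4 hours), 1740 (24 hours) and 133 (48 hours). For Arnt they were Ifih1 (r = 0.944), Smtnl2, Il1r1, Dbt and Net1 (0.903). Il1r1, the interleukin-1 receptor, had a mean signal of 1257 in liver, 10270 at 4 hours and 1176 at 48 hours.

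Smtnl2 was also among the 5 for Cyp1a1, with Ythdf2 (r = 0.868), Rpl7l1, Dnm1l and Prdm4 (0.837), and Cyp1a1 and Arnt had an r of 0.79 with each other. The genes most like Cyp1b1 were LOC102555491 (0.951), Hhipl1, Mdk, Irf9 and Lhfpl2 (0.915), and the r of Cyp1b1 with Cyp1a2 was 0.72. Those most like Ahr were Aco1 (0.907), Agk, Zfp658, Abca2 and Insr (0.892). Ahr had r values between -0.47 and 0.15 with the other members.

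The share of all genes called against liver was 46.2% at 4 hours, 47.6% at 24 hours and 47.9% at 48 hours. Of 18 further target genes of the receptor, 14 were on the array and 10 were tested. At 4 hours 3 were higher than in liver, 3 lower and 4 not called, with a median log2 fold change of -0.29 (all genes -0.25). Besides Tiparp, described below, the higher ones each lost their call in 9 of 9 fits that left out a sample or rat. They lost it with the actin ratio as a covariate too. At 24 hours 0 were higher and 2 lower (median 0.26, all genes 0.00), and at 48 hours 1 was higher and 2 lower (median -0.05, all genes 0.04). Tiparp, a mono-ADP-ribosyltransferase that feeds back on the receptor, was at 468, 788 and 1161 in the livers, 719, 1274 and 1743 at 0 hours and 4861, 5928 and 5667 at 4 hours. Every rat had its highest value at 4 hours, and the change was 2.86 on the log2 scale (SE 0.32, limma adjusted p = 1.71e-05). At 24 hours Tiparp was at 1000, 946 and 751, a range that overlaps with the livers.

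Nqo1, the quinone reductase that is a target of both the receptor and Nrf2, was at 725, 705 and 779 in liver and 1451, 1070 and 1142 at 48 hours. The groups did not overlap, and the change was 0.72 (SE 0.21, limma adjusted p = 0.0136). It was not called in 3 of 9 fits that left out a sample or rat (0.58 to 0.81, highest adjusted p 0.0659), namely without the 48 hour sample of rat 1, without rat 2 and without rat 3. The call also ended with the actin ratio as a covariate and without the livers of rats 1 and 2. Xdh, xanthine dehydrogenase, fell by 2.49 and Slc46a3, a lysosomal transporter, fell by 1.32 at 48 hours (limma adjusted p = 5.76e-07 and 0.000509). Slc46a3 was lowest at 4 hours, -2.29 (limma adjusted p = 8.45e-06). Ahrr (the receptor's repressor), Aldh3a1, Ugt1a6 and Gsta2 were among those not tested. With arrays centred on their median the counts were 4 higher and 2 lower at 4 hours, 4 and 2 at 24 hours, and 2 and 2 at 48 hours. With the actin ratio as a covariate they were 1 and 3, 0 and 2, and 0 and 2. Without the livers of rats 1 and 2 there were 1 higher and 3 lower at 4 hours and 0 and 2 at 48 hours.

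Genes whose proteins hold, move or degrade the receptor were read next. Of 14 tested, 1 was higher and 3 lower at 4 hours (median -0.18, all genes -0.25), 2 and 2 at 24 hours (-0.15, all genes 0.00), and 2 and 3 at 48 hours (-0.04, all genes 0.04). Among all genes, 46.2%, 47.6% and 47.9% were called at these times. Hsp90ab1, the chaperone of the receptor complex, was 0.60 above liver at 24 hours and 0.55 at 48 hours (limma adjusted p = 0.0156 and 0.0236). Those calls ended in 4 of 9 and 5 of 9 fits that left out a sample or rat, with changes of 0.46 to 0.69 and 0.41 to 0.66, and both ended with the actin ratio as a covariate and without the livers of rats 1 and 2. Ptges3 (p23), its co-chaperone, was 0.35 above liver at 4 hours (limma adjusted p = 0.0313), a call that ended in 7 of 9 such fits (0.26 to 0.41), without the livers of rats 1 and 2 and with only the groups compared in the fit. Xpo1, the nuclear exporter, was higher by 1.65 at 24 hours and 1.17 at 48 hours (limma adjusted p = 0.000175 and 0.00202), and its call at 48 hours ended with the actin ratio as a covariate and without the livers of rats 1 and 2. Rb1, the retinoblastoma protein, had mean signals of 626 in liver and 125, 224 and 199 at 4, 24 and 48 hours (-1.66 at 48 hours, limma adjusted p = 6.24e-05). Ep300, a histone acetyltransferase, was at -0.56 and -0.53 against liver at 24 and 48 hours, not called in 2 of 9 fits each. Both its calls ended with arrays centred on their median, with the actin ratio as a covariate and without the livers of rats 1 and 2. With arrays centred on their median the counts were 4 higher and 1 lower at 4 hours and 3 and 1 at 24 and at 48 hours. Without the livers of rats 1 and 2 they were 0 and 2 at 4 hours, 1 and 1 at 24 hours and 0 and 1 at 48 hours, and with the actin ratio as a covariate 1 and 3, 1 and 1, and 0 and 1.

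Arnt serves other bHLH-PAS proteins too, so these, related PAS genes and the hypoxia-inducible target genes were read beside it. Background shares of all genes called were 46.2% at 4 hours, 47.6% at 24 hours and 47.9% at 48 hours. Of 9 tested bHLH-PAS and related PAS genes 2 were higher and 2 lower at 4 hours (median 0.07), 1 and 1 at 24 hours (0.10) and 1 and 0 at 48 hours (0.02). The last was the clock gene Per2 (1.84, limma adjusted p = 0.0462), whose protein has PAS domains but no bHLH domain. It was not called in 7 of 9 fits that left out a sample or rat (1.48 to 2.24, highest limma adjusted p 0.248). Nor was it called with the actin ratio as a covariate or without the livers of rats 1 and 2. Epas1, the HIF-2 alpha subunit, was at 5389, 6242 and 6286 in liver and at 10084, 11921 and 14195 at 4 hours, with no overlap. Its change was 1.00 (SE 0.15, limma adjusted p = 0.000143) at 4 hours and -0.14 (adjusted p = 0.453) at 24 hours. Hif1a had mean signals of 2917 in liver, 3062 at 4 hours and 3726 at 48 hours (0.35, limma adjusted p = 0.174). Arnt2, a close relative of Arnt, had 126 in liver and 87.3 at 48 hours (-0.53, limma adjusted p = 0.215). With arrays centred on their median 4 of the 9 were higher and 0 lower at 24 hours, and 3 and 0 at 48 hours. With the actin ratio as a covariate 0 were called at 24 and at 48 hours.

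The HIF target genes were read against the same background of 46.2%, 47.6% and 47.9% of all genes called at 4, 24 and 48 hours. Of 18 tested 10 were higher and 0 lower than in liver at 4 hours (median 0.72, all genes -0.25), 9 and 2 at 24 hours (0.87) and 7 and 2 at 48 hours (0.75). Without the livers of rats 1 and 2 the counts were 10 and 0, 7 and 1, and 5 and 1. They were the same with the actin ratio as a covariate. With arrays centred on their median the counts were 14 and 0 (median 1.18), 13 and 1 (1.28) and 11 and 1 (1.14). Egln3, an oxygen sensor of the pathway, had signals of 50.2, 34.2 and 56.8 in liver and 1049, 1086 and 1087 at 4 hours, and was 3.62 above liver at 48 hours (SE 0.47, limma adjusted p = 4e-05). Adm (adrenomedullin) was higher by 2.71 and Slc2a1, the glucose transporter GLUT1, by 1.32 at 48 hours (limma adjusted p = 0.000140 and 0.000349), and the latter call ended with the actin ratio as a covariate. Vegfa, the endothelial growth factor, went the other way, with mean signals of 2796 in liver, 3187 at 4 hours and 696 at 48 hours (-2.01, limma adjusted p = 7.48e-06).

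Every enzyme of the family takes its electrons from Por and holds a heme. Por, the P450 reductase, was at 1640, 1519 and 1996 in liver and at 7756, 9757 and 9454 at 4 hours. It was above all livers at 24 hours (8772, 8936 and 11018) and 48 hours (7298, 6312 and 7029), 2.48 and 2.01 above liver on the log2 scale (limma adjusted p = 1.97e-06 and 9.31e-06), while Cyp1a2 fell. Alas1, the rate-limiting enzyme of heme synthesis, was at 7321, 4031 and 4686 in liver and 924, 972 and 928 at 4 hours. The groups did not overlap (-2.46, SE 0.26, limma adjusted p = 1.07e-05), and its mean at 48 hours was 5081 (-0.03). Alad, the next enzyme, stood at -1.97 and Cyb5a, cytochrome b5, at -0.77 against liver at 48 hours (limma adjusted p = 5.96e-07 and 0.000755), the latter not called with arrays centred on their median. Ppox, a later enzyme of the pathway, stood at -0.89 (limma adjusted p = 0.0131), a call lost in 3 of 9 fits that left out a sample or rat (-1.16 to -0.63), with arrays centred on their median, with the actin ratio as a covariate and without the livers of rats 1 and 2. Hmox1, heme oxygenase, singled out after its values were seen, was at 515, 734 and 493 in liver and 9866, 10289 and 11904 at 4 hours (4.22, limma adjusted p = 2.04e-06).

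The background was again 46.2%, 47.6% and 47.9% of all genes called at 4, 24 and 48 hours. Of the 15 tested genes of electron transfer and heme, 2 were higher and 8 lower at 4 hours (median -0.45), 1 and 7 at 24 hours (-0.44) and 2 and 5 at 48 hours (-0.29). With arrays centred on their median these medians were 0.01, -0.03 and 0.10, with 3 higher and 2 lower, 4 and 2, and 3 and 1. Without the livers of rats 1 and 2 the counts were 2 and 4, 1 and 4, and 1 and 3, and with the actin ratio as a covariate 2 and 7, 1 and 3, and 1 and 2.

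**Figure D4:**
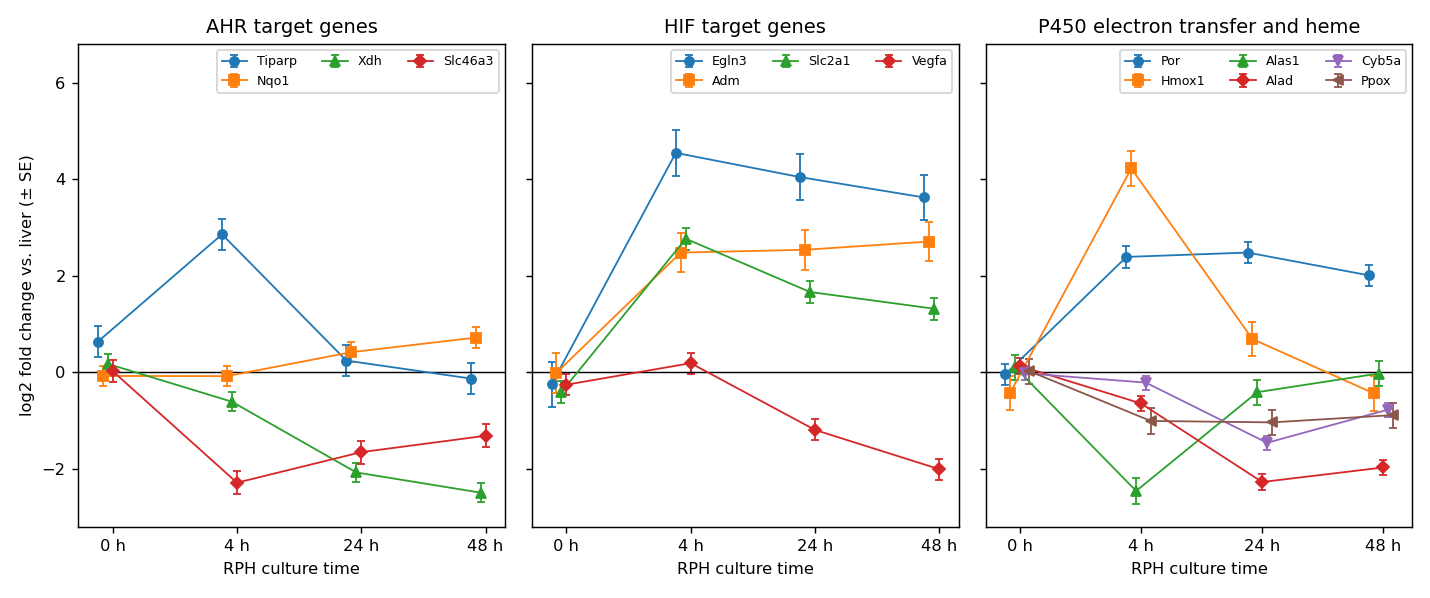
Log2 fold change against liver (± SE) over culture time for named targets of the Ah receptor (left), HIF targets (middle) and genes of P450 electron transfer and heme (right). Tiparp and Hmox1 peak at 4 hours (2.86 and 4.22) and return, Por and Egln3 stay high, and Alas1 has its low point at 4 hours (-2.46).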

How the data were processed

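Total RNA of liver and RPH from 3 rats was hybridised to Affymetrix rat arrays. The signal intensity of each probe set was deposited on a linear scale after MAS5 summarisation, scaled by the authors on each array to a mean of 500 (2% trimmed at each end). MAS5 and the affy package are named in the submitters' notes, with versions not given in the sources used here. Of 31099 probe sets, 57 are controls, 20832 list 1 gene, 436 several and 9780 none, and gene names come from the platform annotation (0 symbols needed updating). Signals were turned into log2 values and technical arrays were averaged, giving 15 samples. Probe sets above the array median on at least 5 of 43 arrays were kept, with the highest mean log2 signal per gene, and 10650 genes were fitted with limma 3.58.1 in R 4.3.3 with all 5 groups in the fit, an eBayes prior of 3.28 degrees of freedom and Benjamini-Hochberg adjustment over all genes (called at an adjusted p under 0.05). Scripts were tested on simulated data.

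Named genes are the members, the called genes of each list with the largest changes at 48 hours (up to 4), fixed names of the Ah receptor and heme pathways, and for each member the 5 genes with the highest r. The members and lists were chosen with earlier results of these data known. The number of rats and arrays limits the precision, and an exact test of 3 against 3 samples cannot go below p = 0.1. The p-values of the main fit rest on the spread between rats within groups, pooled over the 5 groups and moderated by the prior. That fit has no term for the rat, so they do not measure the spread of the changes within rats. Samples of 1 rat deviated together (median r of 0.34 over 30 pairs, against -0.18 between rats), most clearly without the livers (0.42, lowest 0.21), as the labels name the rat. Alternatives were the normalization, the offset, the filter, the probe set, the technical arrays, the rat as a block, the groups in the fit, the variance model, the threshold and each sample or rat left out. After the data were seen, an actin ratio covariate, the livers of rats 1 and 2 left out and the other Ahr probe set were added.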

Additional observations from a re-analysis of the deposited data

How the results depend on the processing

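Of 1010 results of single genes under alternatives, 916 kept their side of the threshold, 66 lost a call and 27 gained one. The call on 1 reversed in direction, the change of Ahr from 0 to 4 hours with the other probe set (0.32). Among the 916, a further 66 results changed sign but were called under neither setting. Without any filter on low signal, the members called fell from 2 to 1 at 4 hours against liver, from 3 to 1 at 4 hours against 0 hours and from 2 to 1 at 24 hours against 0 hours. With the stricter filter, under which Cyp1b1 was not among the 9243 genes tested, 1 member was called at 24 and at 48 hours against liver and 1 against 0 hours at each time. With all arrays and the sample as a random block, 1 was called at 24 hours against liver and 1 against 0 hours. With only the groups compared in the fit, 1 was called at 4 hours and 1 at 24 hours against 0 hours, and with a trended and robust prior 1 at 24 hours. The random block and the fit of only the groups compared each added Cyp1a1 at 48 hours against liver. With the actin ratio as a covariate, 1 was called at 24 hours against liver, and 1 at 24 and 1 at 48 hours against 0 hours. Without the livers of rats 1 and 2, 0 were called at 4 hours, 1 at 24 hours and 1 at 48 hours against liver. Leaving out 1 sample or rat gave 1 to 2 members at 4 hours, 1 to 3 at 24 hours and 2 in each fit at 48 hours against liver, 1 to 2 at 4 and at 24 hours and 1 to 3 at 48 hours against 0 hours, and 2 to 4 from 4 to 24 hours. With the rat as a replicate block, 3 members were called at 24 and 3 at 48 hours against liver (Ahr added) and 4 from 4 to 24 hours (Cyp1b1 added), and no other call on a member changed. The causes of these moves were not tested. Signals near the array median or below it limit Cyp1a1, Cyp1b1, Ahr and Arnt, while Cyp1a2 was above it on 43 of 43 arrays.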
